A study of Mus musculus with 5 samples.

Results

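Ifit1, Ifit2, Ifit3, Ifit3b, Isg15, Rsad2, Oas1a, Oas2, Oas3 and Oasl2 encode antiviral effector proteins of the interferon response. They were taken by symbol from the table of raw counts, which held all 10 among its 35976 genes. Their levels were read in bulk RNA-seq libraries of astrocytes that had been collected from the amygdala with magnetic beads against ACSA-2, a surface protein of astrocytes. All mice had the genotype Ccr2::CreERT2/+;DTR/+, in which the Ccr2 locus drives a tamoxifen-activated Cre recombinase and a diphtheria toxin receptor is made in cells with Cre activity. Every mouse also received tamoxifen, 18 days of tube restraint, fear conditioning and extinction, so no library came from an unstressed or untransgenic mouse. The groups differed in the agent given during restraint, which was saline in 2 libraries (saline 1 and saline 2) and DTx, diphtheria toxin, in 3 libraries (called 5A, 6A and 7A after their columns). The age of the mice is not given in the sources used here.

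The libraries held 15961220 to 23720299 counts. Levels below are counts-per-million (CPM) values scaled by the trimmed mean of M-values (TMM), and differences are DTx-labelled over saline libraries. Of 15532 genes with enough counts to be tested, edgeR's quasi-likelihood test called 5 at a Benjamini-Hochberg adjusted p under 0.05. All 5 were sex-linked: Xist, transcribed from the inactive X, had 173 and 129 CPM in the saline libraries and at most 0.159 CPM in the DTx-labelled ones, while Y-linked Ddx3y had at most 0.185 CPM in the former and at least 116 CPM in the latter. Sex-chromosome state and treatment therefore cannot be told apart in any comparison of these groups. The saline libraries also had no count of Ccr2, the gene marking the cells to be depleted, whereas 5A, 6A and 7A had 54, 4 and 4 counts, so the groups are called by their labels only. Libraries 5A and 6A stood apart from 7A: the chi-square of the counts per degree of freedom was 14.2 between 5A and 6A, 60.7 and 58.4 between each of these and 7A, and 17.7 between 7A and saline 2. Saline 1 and saline 2 differed from each other by a similar amount, 59.97. The 10 astrocyte markers summed to 24227 to 28323 CPM in every library. Yet 8 oligodendrocyte markers were also present and summed to more, 41740 to 89879 CPM. The astrocyte sum hid opposite movements, as 5 of its markers had a positive fitted difference and 5 a negative one, none called. Gfap had 290 and 741 CPM in saline 1 and saline 2, against 1079, 1132 and 1609 CPM in 5A, 6A and 7A. Conversely, Aqp4 and Atp1b2 fell without overlap between the groups (log2 fold changes -0.33 and -0.26).

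Type I interferons signal through the receptor chains IFNAR1 and IFNAR2 and the kinases JAK1 and TYK2 to a complex of transcription factors that contains IRF9. This complex binds the interferon-stimulated response element (ISRE) in promoters of interferon-stimulated genes. IFIT proteins bind foreign or incompletely capped RNA and hinder its translation, OAS enzymes answer double-stranded RNA by making oligoadenylate messengers, ISG15 is a ubiquitin-like modifier, and RSAD2 (viperin) makes a chain-terminating nucleotide. Astrocytes and microglia are both known to express such genes in response to interferon.

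The promoters are shown because the ISRE is a defined sequence. RefSeq promoter windows of build GRCm38.p6, from 250 bases before to 50 bases after each annotated start, were matched by symbol for 9 of the 10 genes (not Oas2). They were searched on both strands for the ISRE core GAAANNGAAA, which reads TTTCNNTTTC on the opposite strand. Overlapping matches were kept. The core was present in the windows of 7 of these 9 genes (77.8%), against 32 of 86 other genes of the interferon pathway lists (37.2%), 3.64% of 11582 tested genes with an entry and 3.44% of all 32851 promoter windows. The genes were chosen as effectors of the interferon response. These shares therefore describe that choice and are no result of the comparison of groups. The 200 bases upstream of the start follow for genes with paired or overlapping cores and for Ifit2, which had none, each 5′ to 3′ on the strand of the gene with the cores in capitals.

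Ifit1 (chr19:34640689-34640888, plus strand): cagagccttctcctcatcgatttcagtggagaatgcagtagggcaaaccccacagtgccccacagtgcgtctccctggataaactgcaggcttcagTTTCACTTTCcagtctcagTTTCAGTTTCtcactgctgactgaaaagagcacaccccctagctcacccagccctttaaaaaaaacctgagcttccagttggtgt
Ifit3 (chr19:34583329-34583528, plus strand): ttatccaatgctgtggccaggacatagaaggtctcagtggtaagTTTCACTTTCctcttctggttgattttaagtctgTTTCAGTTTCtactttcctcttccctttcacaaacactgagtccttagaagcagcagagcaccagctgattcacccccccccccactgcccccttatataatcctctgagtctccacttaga
Ifit3b (chr19:34607757-34607956, plus strand): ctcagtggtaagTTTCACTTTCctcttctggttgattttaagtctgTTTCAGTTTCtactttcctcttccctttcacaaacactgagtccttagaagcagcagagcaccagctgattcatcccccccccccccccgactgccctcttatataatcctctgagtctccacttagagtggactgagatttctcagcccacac
Isg15 (chr4:156200819-156201018, minus strand): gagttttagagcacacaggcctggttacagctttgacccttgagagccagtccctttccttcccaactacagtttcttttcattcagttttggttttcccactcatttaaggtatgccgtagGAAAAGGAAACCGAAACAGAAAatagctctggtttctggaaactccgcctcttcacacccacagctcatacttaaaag
Oas1a (chr5:120907526-120907725, minus strand): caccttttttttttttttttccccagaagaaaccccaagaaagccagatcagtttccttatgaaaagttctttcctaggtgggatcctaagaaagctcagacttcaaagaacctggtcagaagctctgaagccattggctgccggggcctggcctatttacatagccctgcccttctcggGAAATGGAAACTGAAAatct
Ifit2 (chr19:34550494-34550693, plus strand): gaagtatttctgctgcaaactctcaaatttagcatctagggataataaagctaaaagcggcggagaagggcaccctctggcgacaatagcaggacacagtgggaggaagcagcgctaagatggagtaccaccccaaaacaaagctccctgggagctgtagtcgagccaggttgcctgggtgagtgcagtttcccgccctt

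Ifit1, Ifit3 and Ifit3b each carried the same pair of cores, TTTCACTTTC followed by TTTCAGTTTC, with the first at bases -104, -156 and -188 from the start. Isg15 had 3 overlapping cores on its own strand between bases -78 and -57, and Oas1a had 2 overlapping cores between bases -20 and -5. Rsad2 had 1 core at base -120 and Oas3 had 1 at base -75. No core was in the window of Oasl2 or in either window of Ifit2, which says only that these letters were not in those windows. A match to the core is a description of the sequence and no measure of binding.

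**Figure D1:**
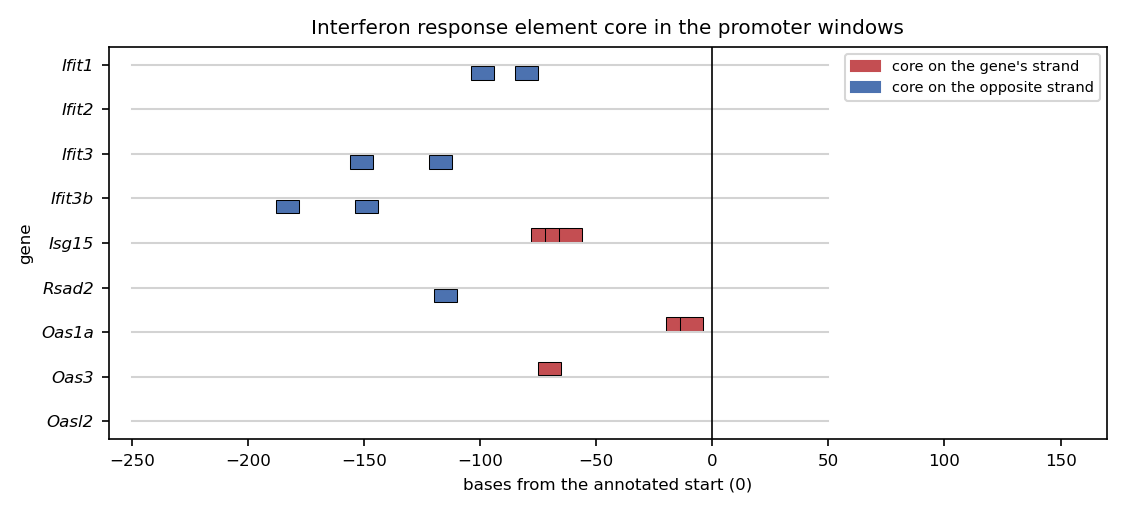
Positions of the ISRE core in the RefSeq promoter windows, in bases from the annotated start (x axis), for the 9 genes with an entry (y axis; Ifit2 by its first start). Boxes above a line are cores on the gene's strand and boxes below it are cores on the opposite strand; the 3 paired promoters of Ifit1, Ifit3 and Ifit3b have theirs on the opposite strand.

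All 10 genes were higher in each of the 3 DTx-labelled libraries than in both saline libraries. None of the 9 that could be tested passed edgeR's quasi-likelihood test over all genes, with adjusted p-values from 0.759 to 0.797. By unadjusted p, 8 of the 9 were under 0.05, and 9 of 9 had groups without overlap. Over all 15532 tested genes, 0.0258% were called higher by the adjusted test, 4.29% were higher at an unadjusted p under 0.05, and 12.1% were higher without overlap. The median log2 fold change of the 9 genes was 3.42, beside 0.00 over all genes tested (0.001709 before rounding). That median is the fitted value of Oas3, which had 2 saline counts and depends on the prior count of the fit, and with Oas3 set at the ratio of its counts the median was 3.45. Oas1a, Oas2 and Oas3 entered the test only through their levels in the DTx-labelled libraries, and Isg15 did not enter it, so the median and these counts describe the tested genes and not all 10. In bulk samples, fewer cells of a type and less RNA per cell cannot be told apart.

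The tools differed on these genes. DESeq2 called 4 of them, namely Ifit1 (adjusted p = 0.00485), Rsad2 (0.00469), Oas1a (0.00466) and Oasl2 (0.00943), where it called 0.612% of genes as higher. The likelihood ratio test of edgeR called 6, adding Ifit3 (adjusted p = 0.0145) and Ifit3b (0.0467), against 0.554% of genes called higher. With limma-voom no member passed (adjusted p = 0.786 for each gene tested). Without library 7A, edgeR's quasi-likelihood test called Ifit1 (adjusted p = 0.0219) and no other member.

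**Figure D2:**
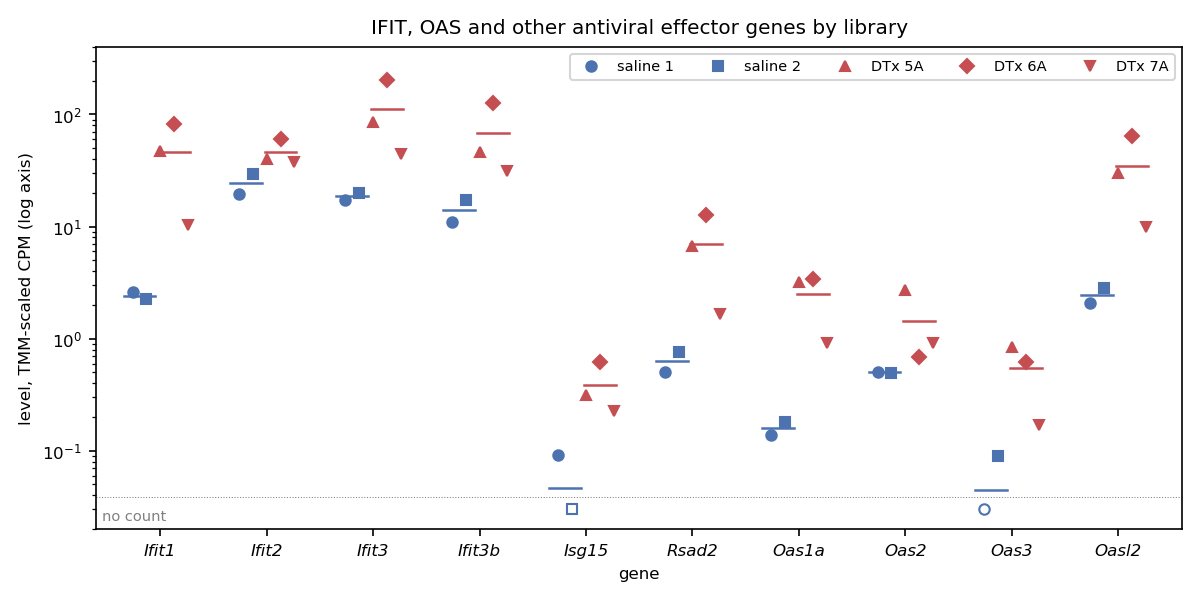
Level of each of the 10 genes (x axis) in each library as TMM-scaled CPM on a log axis, with blue symbols for saline, red symbols for DTx-labelled libraries and short bars for the group means; open symbols under the dotted line mark libraries with no count. The red symbols lie above the blue ones for every gene, and 6A is the highest for 8 of the 10.

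Ifit1 (GRCm38 chr19:34640871-34650009, plus strand), whose protein binds RNA lacking cap methylation, had 2.59 and 2.24 CPM in saline 1 and saline 2. It had 47.0, 82.4 and 10.3 CPM in 5A, 6A and 7A. These were 19.5, 34.1 and 4.27 times the saline mean of 2.41 ± 0.243 CPM (SD, n = 2), so all 3 DTx-labelled libraries were above both saline libraries, but 6A exceeded 7A 7.99 times. The log2 fold change was 4.27 ± 0.99 (SE; edgeR, unadjusted p = 0.00681, adjusted p = 0.761). With all 5 libraries its fitted difference was the largest among the 9 genes tested, but without 6A it was 3.56, below the 3.65 of Oas1a.

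Ifit3 (chr19:34583531-34588731) and Ifit3b (chr19:34607970-34613401) are neighbouring copies on the plus strand. Ifit3 had 17.4 and 20.1 CPM in the saline libraries, against 86.5, 203 and 44.1 CPM in 5A, 6A and 7A. Ifit3b had 10.9 and 17.3 CPM in the saline libraries, against 46.5, 127 and 31.6 CPM in 5A, 6A and 7A. Neither gene overlapped between the groups, and both were highest in 6A. The log2 fold changes were 2.57 ± 0.70 for Ifit3 (adjusted p = 0.789) and 2.27 ± 0.69 for Ifit3b (adjusted p = 0.789), by edgeR's quasi-likelihood test. The transcripts were 97.8% identical over 1700 aligned bases, and 41.1% of the 75-base windows of Ifit3 were also found in Ifit3b (35.7% of those of Ifit3b), so how reads were divided between the copies is uncertain. Their counts stood in a ratio of 1.60 and 1.16 in the saline libraries, against 1.86, 1.60 and 1.39 in 5A, 6A and 7A, which overlapped between the groups. Summed into 1 gene they gave a log2 fold change of 2.45 (adjusted p = 0.790).

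Ifit2 (chr19:34550694-34576419, plus strand), an RNA-binding family member also linked to cell death, had the smallest difference of the tested genes with all 5 libraries. It had 19.6 and 29.6 CPM in the saline libraries, against 39.7, 60.2 and 37.9 CPM in 5A, 6A and 7A. Its groups did not overlap, but 7A was only 1.54 times the saline mean of 24.6 ± 7.11 CPM (SD, n = 2). The log2 fold change was 0.90 ± 0.28 (unadjusted p = 0.0161, adjusted p = 0.789, edgeR).

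Rsad2 (chr12:26442746-26456452, minus strand) had 0.508 and 0.762 CPM in the saline libraries, against 6.77, 12.6 and 1.65 CPM in 5A, 6A and 7A. The 3 DTx-labelled libraries were above both saline libraries and spanned a range of 7.60 times among themselves. Its log2 fold change was 3.45 ± 0.91 (unadjusted p = 0.00866, adjusted p = 0.778, edgeR), from 28 counts in the saline and 359 in the DTx-labelled libraries.

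Isg15 (chr4:156199424-156200818, minus strand) was close to absent at this depth. It had 2 and 0 counts in the saline libraries, against 6, 10 and 4 counts in 5A, 6A and 7A, which is 0.0923 and 0 CPM against 0.317, 0.622 and 0.228 CPM. The groups did not overlap, and the ratio of their summed counts per effective library size was 8.37, with an exact 95% interval of 2.03 to 73.8 that covers counting error only. The gene was below the minimum for testing, which 1 library reached where 2 were needed.

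Genes of the enzymes that attach and remove ISG15 were all higher in the DTx-labelled libraries. All 5 genes of the list were tested, and none was called by edgeR's quasi-likelihood test. By its unadjusted p, 5 were under 0.05 (6.28% of all tested genes, either direction). Without overlap, 5 of 5 were higher (12.1% of all tested genes), with a median log2 fold change of 2.26. Ube2l6, the conjugating enzyme, had 1.89 and 1.93 CPM in the saline libraries, against 9.41, 13.2 and 5.81 CPM in 5A, 6A and 7A (log2 fold change 2.30 ± 0.40, adjusted p = 0.759). Usp18, the protease that removes ISG15 and also restrains IFNAR2, had 1.39 and 1.84 CPM against 16.5, 32.3 and 5.47 CPM (3.48 ± 0.82, adjusted p = 0.761). The ligases Trim25 and Herc6 had log2 fold changes of 1.07 ± 0.26 (adjusted p = 0.761) and 1.17 ± 0.33 (adjusted p = 0.783).

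Oasl2 (chr5:114896936-114912234, plus strand), an OAS family member with a ubiquitin-like end, had 2.08 and 2.82 CPM in the saline libraries. It had 30.1, 64.2 and 9.91 CPM in 5A, 6A and 7A, all above both saline libraries. The log2 fold change was 3.82 ± 0.90 (unadjusted p = 0.00716, adjusted p = 0.761, edgeR), from 108 counts in the saline and 1777 in the DTx-labelled libraries. It was the most abundant OAS gene of the group, at 0.385 ± 0.083 CPM per kilobase of exon in saline (SD, n = 2) and 5.45 ± 4.31 in DTx-labelled libraries (SD, n = 3).

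Oas1a (chr5:120896256-120907521, minus strand), an active oligoadenylate synthetase, had 0.139 and 0.179 CPM in the saline libraries, against 3.22, 3.42 and 0.911 CPM in 5A, 6A and 7A. The groups did not overlap, and 5A and 6A lay close together. Its log2 fold change of 3.93 ± 0.76 had the smallest unadjusted p among the 9 genes (0.00157, adjusted p = 0.759, edgeR) and rested on 7 and 132 counts. Of its 75-base windows, 47.6% were also found in the neighbouring Oas1g, so how reads from these stretches were counted is uncertain.

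Oas2 (chr5:120730333-120749853, minus strand), a larger synthetase, had 0.508 and 0.493 CPM in the saline libraries, against 2.70, 0.684 and 0.911 CPM in 5A, 6A and 7A. Its groups did not overlap, but 6A, the highest library for most of the genes, was the lowest of the DTx-labelled ones. Its log2 fold change was 1.51 ± 0.71, and it had the largest unadjusted p among the 9 genes (0.0718, adjusted p = 0.797, edgeR). The difference rested largely on 5A, without which it was 0.67 and below that of Ifit2 (0.99).

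Oas3 (chr5:120753098-120777661, minus strand), the longest synthetase, had 0 and 2 counts in the saline libraries, against 29 in the DTx-labelled ones together. Its level was 0 and 0.0897 CPM against 0.846, 0.622 and 0.171 CPM in 5A, 6A and 7A, without overlap. The ratio of summed counts was 12.1, with an exact 95% interval of 3.07 to 105 for counting error only (edgeR, unadjusted p = 0.025, adjusted p = 0.789). Its fitted log2 value depends on the prior count and was 3.42 with all libraries, 2.52 without saline 1 and 6.36 without saline 2, which leaves no saline count.

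**Figure D3:**
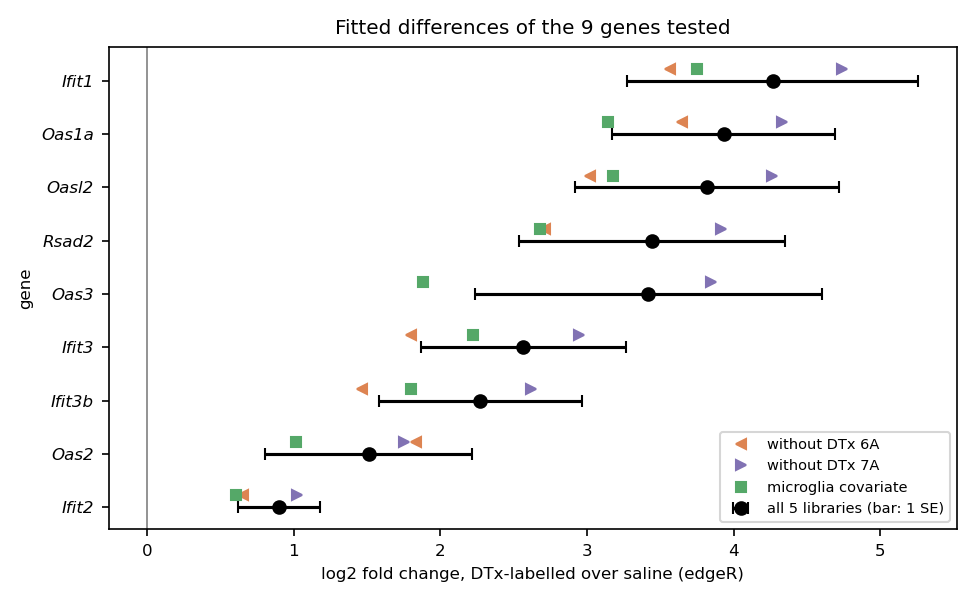
Fitted log2 fold change of the 9 tested genes, DTx-labelled over saline, by edgeR with all 5 libraries (black, bar of 1 SE), without 6A (orange), without 7A (purple) and with the mean level of microglia markers as a covariate (green); a missing mark means that the gene was not tested there. Every mark lies above 0, and Ifit2 has the smallest difference with all 5 libraries, 0.90.

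**Figure D4:**
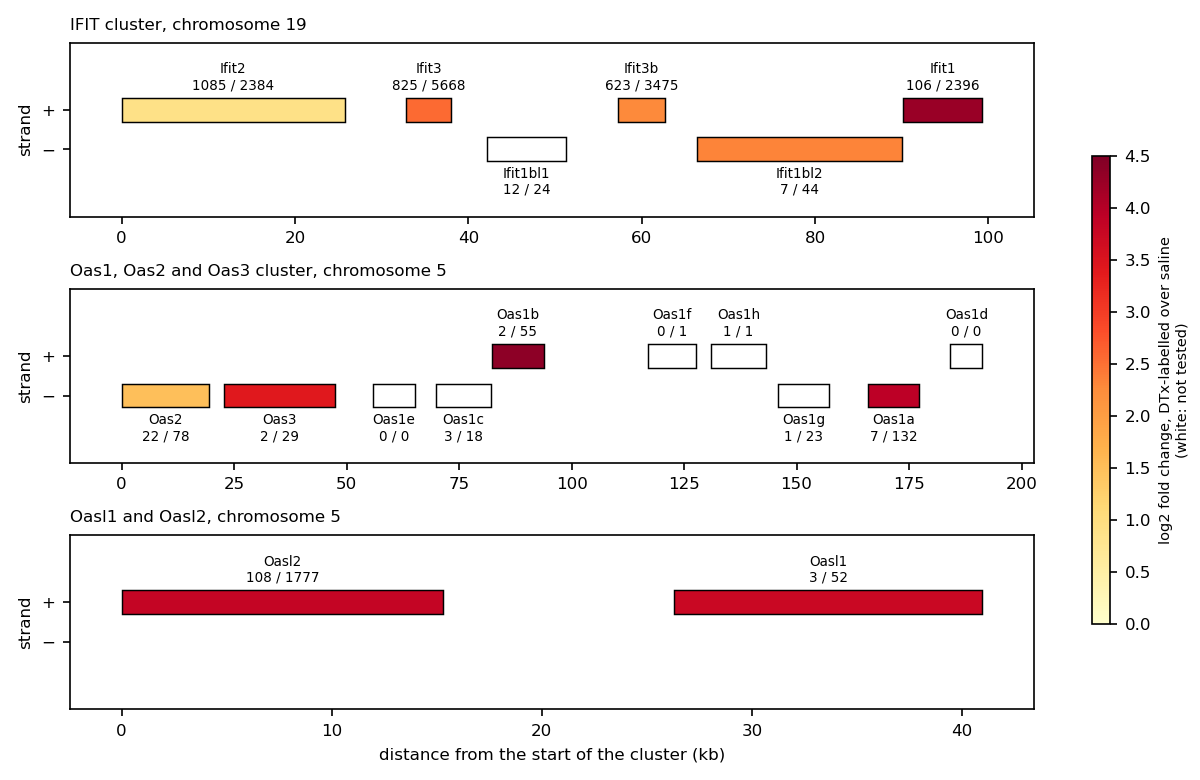
Gene models of the IFIT cluster and the 2 OAS gene groups by distance in kilobases from the first gene's start (x axis) and strand (y axis), labelled with summed counts in saline / DTx-labelled libraries and coloured by log2 fold change on a scale from 0 to 4.5. Genes left white were not tested, and fitted values of Oas3, Oas1b and Oasl1, with at most 3 saline counts, depend on the prior count of the fit; Ifit1, Oas1b and Oas1a have the darkest colours.

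The IFIT genes were ordered differently by level in the groups when set per kilobase of exon. In the saline libraries Ifit3 led with 10.7 ± 1.08 CPM per kilobase (SD, n = 2), followed by Ifit3b with 7.06 ± 2.28 and Ifit2 with 6.27 ± 1.81, whose ranges overlapped, and by Ifit1 with 0.909 ± 0.092. Within each saline library Ifit3b was above Ifit2 (5.4 against 5.0 in saline 1 and 8.7 against 7.5 in saline 2). In the DTx-labelled libraries the order of the means was Ifit3 (63.6 ± 47.0, SD, n = 3), Ifit3b (34.2 ± 25.6), Ifit1 (17.5 ± 13.6) and Ifit2 (11.7 ± 3.16). The spread over libraries was wide, but within each of 5A, 6A and 7A Ifit3 was above Ifit3b and Ifit3b was above Ifit1. Per kilobase, Ifit1 was above Ifit2 in 5A (17.7 against 10.1) and 6A (31.0 against 15.3) but below it in 7A (3.88 against 9.65) and in both saline libraries. Exon lengths are those of GENCODE M21, which need not be the annotation used for counting.

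Among the remaining genes, the DTx-labelled levels per kilobase were 1.61 ± 1.26 for Rsad2, 1.34 ± 0.74 for Oas1a, 0.515 ± 0.273 for Isg15, 0.321 ± 0.247 for Oas2 and 0.077 ± 0.049 for Oas3 (SD, n = 3). The library values of neighbours in that order overlapped, except those of Oas2 (0.154 to 0.606) and Oas3 (0.024 to 0.120). Within each of 5A, 6A and 7A Oas1a was also above Isg15, while Rsad2 and Oas1a, and Isg15 and Oas2, changed order between libraries. In saline the same quantity was 0.147 ± 0.042 for Rsad2, 0.112 ± 0.0023 for Oas2, 0.084 ± 0.015 for Oas1a, 0.061 ± 0.086 for Isg15 and 0.0063 ± 0.0090 for Oas3 (SD, n = 2).

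The genes shared an order of libraries. In 8 of 10 genes the order was 6A, 5A, 7A and then both saline libraries, an order that 4.11% of all tested genes had. The exceptions were Oas2 and Oas3, which were highest in 5A, and 7A was the lowest DTx-labelled library in 9 of 10 genes (38.6% of tested genes). The summed level of the 10 genes was 53.8 and 73.7 CPM in saline, against 264, 554 and 138 CPM in 5A, 6A and 7A. Each gene's correlation with the mean log2 CPM of the group over the 5 libraries ran from r = 0.617 for Oas2 and 0.909 for Ifit2 to 0.998 for Oasl2, which is a description over points that share libraries, and the mean includes the gene itself.

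Of the other family members in these clusters, Ifit1bl2 had 1 and 6 counts in saline, against 25, 13 and 6 counts in 5A, 6A and 7A (log2 fold change 2.34 ± 0.91, adjusted p = 0.789). It shared 5.19% of the 75-base windows of Ifit1. Among 9 further OAS pathway genes, 3 were tested and all 3 had a higher level in the DTx-labelled libraries, with none called. Oasl1 had 3 and 52 summed counts and Oas1b 2 and 55.

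Ligands were nearly absent. Of 21 interferon genes in the table, 18 had no count in any library, including Ifnb1. Ifnk had 14 counts in saline, against 6 in the DTx-labelled libraries, and Ifnz had 1 and 2. Ifng, the type II ligand, had 0 counts in saline, against 17, 4 and 0 in 5A, 6A and 7A, which is at least 5.86-fold higher over the group against a floor of 3 counts for the saline group, with no count in 7A.

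Receptor and kinase genes showed no common direction. Of 8 tested, 5 were higher and 3 lower, with a median log2 fold change of 0.07 and none called. Ifnar2 had 17.0 and 19.8 CPM in saline, against 28.8, 28.1 and 22.8 CPM in 5A, 6A and 7A (0.53 ± 0.17, adjusted p = 0.789). Ifnar1 had 62.2 and 64.6 CPM against 56.3, 59.5 and 56.2 CPM (-0.14 ± 0.12, adjusted p = 0.831). Il10rb, a chain of the interferon lambda receptor, had a log2 fold change of 0.74 ± 0.28 (adjusted p = 0.789).

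Among 9 transcription factors of the pathway, all tested and none called, 7 were higher and 6 were higher without overlap (12.1% of all tested genes). Their median log2 fold change was 1.02. Irf7, which amplifies interferon gene expression, had 1.48 and 0.762 CPM in saline, against 12.1, 25.6 and 5.70 CPM in 5A, 6A and 7A (3.68 ± 0.76, adjusted p = 0.759). Irf9, the DNA-contacting part of the ISRE-binding complex, had 8.13 and 9.10 CPM against 30.5, 43.9 and 18.6 CPM (1.85 ± 0.37, adjusted p = 0.759). Irf5 had a log2 fold change of 1.46 ± 0.49 (adjusted p = 0.789), while Irf3, which is activated by phosphorylation, had 25.0 and 27.3 CPM against 28.1, 24.5 and 25.7 CPM, with overlap.

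Of 7 genes listed as negative regulators, 6 were higher, 3 of them without overlap (12.1% of all tested genes), and none was called. Besides Usp18, these included Isg20, which is an exonuclease and no regulator of signalling (1.61 ± 0.54, adjusted p = 0.789), the phosphatase Ptpn6 (1.05 ± 0.59, adjusted p = 0.803) and Pias1, a SUMO ligase (0.27 ± 0.15, adjusted p = 0.797). Of 10 nucleic acid sensors tested, 9 were higher and 6 were so without overlap (12.1% of all tested genes), none called. Zbp1, a sensor of Z-form nucleic acids, had 0.277 and 0.179 CPM in saline, against 2.59, 1.80 and 0.854 CPM in 5A, 6A and 7A (2.91 ± 0.66, adjusted p = 0.759). The RNA sensors Ifih1 (MDA5), Ddx58 (RIG-I) and Eif2ak2 (PKR) had log2 fold changes of 1.52 ± 0.44, 1.35 ± 0.43 and 0.71 ± 0.24 (adjusted p = 0.789 for each).

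Other antiviral effectors were higher in 32 of 32 tested genes, 24 of them without overlap (12.1% of all tested genes). Their median log2 fold change was 1.58 and none was called. Slfn8, of the Schlafen family, had 0.231 and 0.224 CPM in saline, against 4.02, 5.22 and 1.94 CPM in 5A, 6A and 7A (3.99 ± 0.59, adjusted p = 0.581). Ifi204, a DNA-binding protein, was highest in 5A, with 4.76, 1.37 and 1.77 CPM against 0.185 and 0.269 CPM (3.50 ± 0.74, adjusted p = 0.759). Trim30a and Lgals9 had log2 fold changes of 2.64 ± 0.52 and 2.01 ± 0.40 (adjusted p = 0.759 for each). Mx1, an antiviral GTPase, had no count in saline, against 16, 41 and 2 counts in 5A, 6A and 7A, at least 16.5-fold higher over the group against a floor of 3 counts.

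Across all 106 listed pathway genes in the table other than the 10, 74 were tested and none was called by edgeR's quasi-likelihood test. Of the 74, 67 were higher, 44 had an unadjusted p under 0.05 in either direction (6.28% of all tested genes), and 49 were higher without overlap (12.1% of all tested genes), with a median log2 fold change of 1.19. DESeq2 called 14 of the 74 and the likelihood ratio test 13. Mx1, Slfn8, Ifi204 and Zbp1, among others, entered the test only through their levels in the DTx-labelled libraries. The numbers of higher genes and the medians of the pathway lists therefore describe the tested genes and not the whole lists.

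The 8 genes outside the group whose log2 CPM over the 5 libraries correlated most closely with the mean of the 10 were Bst2 (r = 0.999), Trim30a, Usp18, Bad and Efemp2 (0.998 each), and Iigp1, Irf9 and Cxcl10 (0.997 each). The candidates had a mean of at least 1 CPM. An r over 5 points is a description only. Sizes differed: Iigp1, an interferon-inducible GTPase, had 0.416 and 0.493 CPM in saline, against 8.88, 19.5 and 1.99 CPM in 5A, 6A and 7A, whereas Bad, a cell-death regulator, had 32.9 and 33.0 CPM against 36.4, 36.7 and 34.5 CPM. Cxcl10, a chemokine, had no count in saline, against 283 in the DTx-labelled libraries, at least 78.9-fold higher against a floor of 3 counts over the group.

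Markers of other cells moved with the group in part. The 12 microglia markers summed to 110 and 233 CPM in saline, against 303, 266 and 204 CPM in 5A, 6A and 7A. All 12 were tested, 11 were higher and 1 (Csf1r) was so without overlap (12.1% of all tested genes). Csf1r and Sall1 were among the most abundant. Saline 2 had a higher microglia sum than 7A while the 10 effector genes summed to 73.7 CPM in the former and 138 CPM in the latter. With the mean microglia marker level as a covariate, the median log2 fold change of the 9 tested genes was 2.22, all 9 remained positive and none was called. The 7 border macrophage markers, led by F13a1, Mrc1 and Cd163, summed to 19.0 and 26.3 CPM against 134, 18.1 and 53.9 CPM. The sum in 6A, which had the highest effector sum, was close to that of saline 1. By their mean log2 CPM, 6A (0.97) lay between saline 1 (0.85) and saline 2 (1.52). By the fitted values 7 of these 7 markers were higher, none without overlap and none called (1 had an unadjusted p under 0.05). Their median log2 fold change was 1.79, against 0.65 for the microglia markers.

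Monocyte and neutrophil markers summed to at most 2.91 CPM (5A) and were 0.0923 and 0.403 CPM in saline, with Ngp and Retnlg at 0 in every library. Lymphocyte and plasmacytoid dendritic cell markers summed to 1.71 and 6.19 CPM in saline, against 8.09, 5.97 and 4.27 CPM in 5A, 6A and 7A, with Cd8a and Ms4a1 among those at 0. Most of each sum was Siglech, which is also in the microglia list. It had 1.39 and 5.33 CPM in saline, against 6.40, 5.54 and 3.59 CPM in 5A, 6A and 7A. The 8 neuron markers, led by Snap25, Nefl and Tubb3, summed to 315 and 290 CPM in saline, against 321, 430 and 428 CPM in 5A, 6A and 7A. Every DTx-labelled library was thus above both saline libraries, with 7 of 8 markers higher and 3 so without overlap (12.1% of all tested genes). None was called, and 3 had an unadjusted p under 0.05 (6.28% of all tested genes, either direction). Markers of oligodendrocyte precursors summed to 731 and 930 CPM against 463, 650 and 915 CPM, with 6 of 7 lower and 2 so without overlap, none called. Endothelial and mural markers summed to 169 and 427 CPM against 307, 252 and 313 CPM. Most of this was Rgs5, a mural marker, with 104 and 284 CPM against 185, 164 and 210 CPM. The endothelial markers Cldn5, Pecam1 and Flt1 had at most 1.43, 1.37 and 5.07 CPM. Oligodendrocyte markers were lowest in the libraries with most effector counts, at 41740 and 43031 CPM in 5A and 6A, and 58464, 89879 and 87897 CPM in saline 1, saline 2 and 7A. Choroid plexus and ependymal markers summed to 204 and 25.7 CPM in saline, against 177, 113 and 33.2 CPM in 5A, 6A and 7A. Clic6 alone had 9.33 and 8.29 CPM in saline, against 67.8, 92.7 and 12.6 CPM in 5A, 6A and 7A. It was the 1 higher marker of 6 tested, with the other 5 lower and none called. Early-response genes that dissociation can induce summed to 845 and 313 CPM against 482, 197 and 443 CPM, and mitochondrial transcripts to 59416 and 61828 CPM against 59439, 67847 and 73946 CPM. With only 5 libraries, the microglia covariate is no measure of the part of microglia. The part of any of these cells and of RNA quality in the result was not tested.

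**Figure D5:**
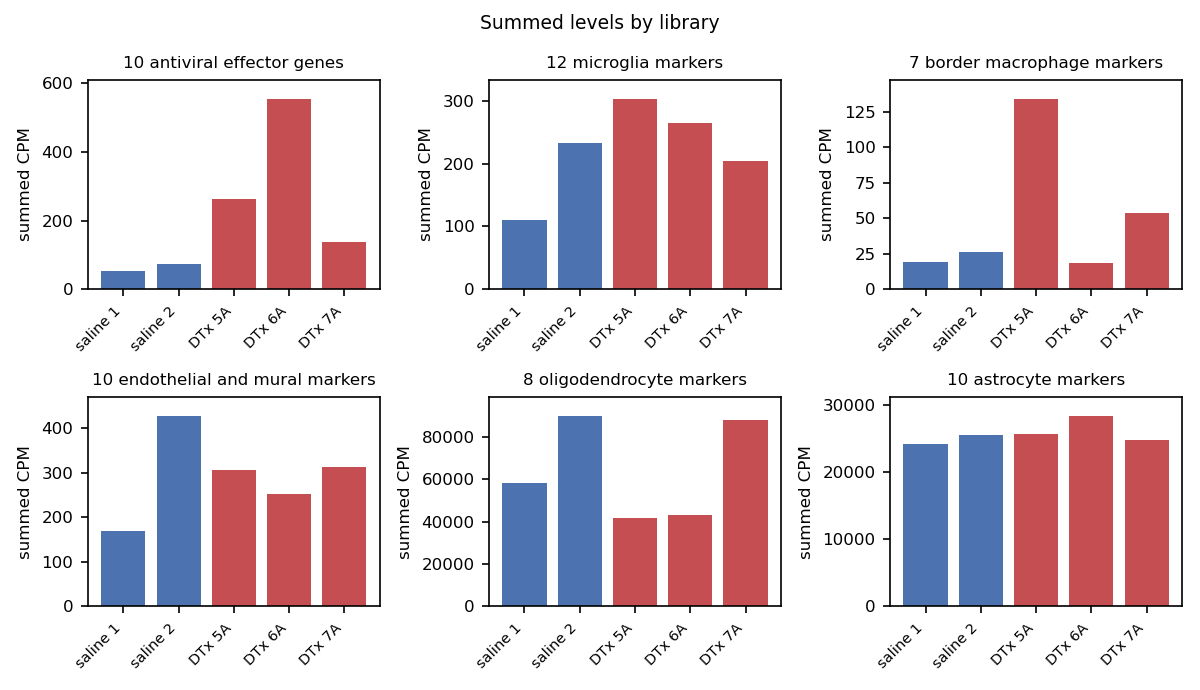
Summed CPM (y axes, each from 0) of the 10 effector genes and of 5 marker lists in each library (x axis), blue for saline and red for DTx-labelled libraries. The effector sum is highest in 6A at 554 CPM, whereas the border macrophage sum is highest in 5A at 134 CPM and the oligodendrocyte sum is highest in saline 2 at 89879 CPM.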

How the data were processed

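Bulk RNA-seq of ACSA-2-selected amygdala cells was read from a deposited table of raw counts per gene, 1 column per library and no pooling, per the file headers. The submitters' processing notes name STAR 2.7.5c, featureCounts 2.0.1, fastp 0.23.2 and edgeR 3.42.4 besides FastQC 0.11.9 and MultiQC 1.11, with builds GRCm38 and mm10. The sources used here do not give the annotation, the settings or the use of strand, so reads of antisense partners cannot be separated. In GENCODE M21 no exon of another gene overlapped the exons of the 10 genes, but the annotation used for counting can differ. Saline columns were matched by the word Ctrl and their number. The DTx columns match no label's number and were assigned to the group alone. There was 1 further column, with Ctrl in its name but matching no sample here, which was not used, and 1 saline animal of the design text is not analysed here. Whether libraries are separate animals is not stated, so p-values measure the spread between libraries, which can be technical.

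Counts were fitted with edgeR 4.0.16 (R 4.3.3): filterByExpr (by group, minimum count 10), TMM scaling and the robust quasi-likelihood F test, adjusted over all genes tested by Benjamini-Hochberg, threshold 0.05. Totals of 15961220 to 23720299 counts set the precision. Every pair of libraries differed by more than sampling noise (chi-square of at least 14.2 per degree of freedom, genes with at least 20 counts). Correlations used log2 CPM with a prior count of 2. Count ratios carry exact 95% intervals, and an empty group was set to 3 counts; both cover counting error only. Scripts were tested on simulated data.

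The 10 genes, the gene lists and the tests were chosen with earlier results of these data known. Named genes were all 10, up to 4 tested genes of smallest p per pathway list, every ligand with a count, the 3 most abundant markers of lists and markers at 0, and the 8 genes most like the group by Pearson's r, except that some genes of these lists are not reported here. Others (Irf3, Ifnar1, Ifnb1, Oasl1, Mx1, Ifit1bl1, Cldn5, Pecam1, Flt1 and sex-linked genes) were added after their values were seen. Alternatives were scaling by RLE, by upper quartile and by total count, no low-count filter, at least 1 CPM in 2 libraries, DESeq2 1.42.0, limma-voom (limma 3.58.1), edgeR's likelihood ratio test, each library left out, a microglia covariate, and Ifit3 with Ifit3b summed. Gene positions are from GENCODE M21 (GRCm38) and promoters from RefSeq (GRCm38.p6).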

Additional observations from a re-analysis of the deposited data

How the results depend on the processing

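With 2 and 3 libraries, and treatment tied to sex-chromosome state, the design limits every comparison. No member was called by edgeR's quasi-likelihood test, nor after RLE, upper-quartile or total-count scaling, either other filter, limma-voom, the microglia covariate or the sum of Ifit3 and Ifit3b. DESeq2 called 4 members, 14 other pathway genes and 111 genes in all, and the likelihood ratio test called 6, 13 and 100, against 0, 0 and 5 by the quasi-likelihood test. With no low-count filter, 9 genes in all and 1 pathway gene were called. The microglia covariate gave a median log2 fold change of 2.22 for the members, against 3.42 without it, and 3 genes called in all. Leaving out each library in turn gave 0 to 1 member called, 0 to 1 pathway gene, 5 to 13 genes in all and a median of 2.27 (without 6A, 8 members tested) to 3.84 (without 7A); the higher counts were all without 7A. With 1 saline library left, that library is assumed to vary like the others. The cause of these shifts was not tested. The difference of each of the 9 tested members kept its direction in every alternative in which it was fitted, in 12 to 15 fits per gene, and Isg15 was higher in the 3 alternatives that tested it. With a prior count of 0.5, 6 of the 8 most alike genes were shared. The median of all genes moved by less than 0.1 on the log2 scale between scalings. No paired analysis was possible because the DTx columns carry no replicate number of the labels. Isg15, with 22 counts in all, and Oas3, with 31, are limited by depth.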
